A study of Homo sapiens with 6 samples.

Results

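The Krüppel-like factor (KLF) genes examined were KLF3, KLF4, KLF5, KLF6, KLF7, KLF9, KLF10, KLF11, KLF13 and KLF16, 10 genes, of which 9 had a named probe. The array named 20045 genes in all. The KLF genes were taken by gene symbol with all their probes, 13 probes of 47323. HCT116 cells, a human colorectal carcinoma line grown in DMEM with serum, received 0.1% (v/v) dimethyl sulfoxide (DMSO, the vehicle group) or 40 µM of NU7441, a DNA-PK inhibitor (the NU7441 group), for 48 h. The labels give a DMSO concentration for the vehicle group only and do not state that replicates came from separate cultures, so the p-values reflect a spread that could be technical. Total RNA of 3 samples per group was read on Illumina bead arrays, 1 per sample, and precision is limited by their number. The comparison asks which of these transcription factor mRNAs differed in level after 48 h of the inhibitor.

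KLF proteins bind GC-rich and CACCC elements through a conserved set of C2H2 zinc fingers at their carboxyl end, and differ in the partners that their amino-terminal parts recruit. KLF4, KLF5, KLF6 and KLF7 are mostly described as activators, KLF3 as a repressor that binds CtBP, and KLF9, KLF10, KLF11, KLF13 and KLF16 as repressors that recruit the SIN3A complex. In the gut, KLF4 marks differentiated surface epithelium and restrains growth, whereas KLF5 is found in proliferating crypt cells. KLF10 and KLF11 were first described as genes induced by transforming growth factor beta.

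KLF6 and KLF13 rose in NU7441-treated cells, by 1.51-fold and 1.34-fold. KLF9, KLF4 and KLF10 were measured and did not pass the test. KLF3, KLF5, KLF7 and KLF16 had probes, but none was above background on all 3 arrays of either group, and no probe of KLF11 was named, so these 5 genes were not tested. Of the 5 tested genes, 0 were lower by limma's test, and 0 were lower at an unadjusted p under 0.05. The 2 called genes of 5 tested make 40%, where 36.6% of all 9342 genes tested were called in either direction, 17.8% higher and 18.9% lower, so the share of KLF genes called lay near that of all genes.

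The RefSeq sequences (GRCh38.p14) of the 250 bases before the annotated start are shown for KLF6 and KLF13, the genes that rose, and for KLF4 and KLF9, measured genes that did not pass the test, so that their base composition and sequence motifs can be set side by side. A window of KLF10, also measured and not past the test, was not used here. Capitals mark the GC box GGGCGG or its complement CCGCCC, the KLF element core CACCC or GGGTG and the E-box CACGTG, all searched on both strands. The KLF6 window lies at chr10:3785210-3785459, minus strand, the KLF13 window at chr15:31326585-31326834, plus strand, the KLF4 window at chr9:107489770-107490019, minus strand, and the KLF9 window at chr9:70414658-70414907, minus strand.
KLF6: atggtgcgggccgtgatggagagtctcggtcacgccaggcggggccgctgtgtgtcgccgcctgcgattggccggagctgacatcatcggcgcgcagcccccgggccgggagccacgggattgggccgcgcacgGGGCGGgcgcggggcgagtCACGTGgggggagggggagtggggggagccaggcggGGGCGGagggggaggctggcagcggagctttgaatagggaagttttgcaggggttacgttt
KLF13: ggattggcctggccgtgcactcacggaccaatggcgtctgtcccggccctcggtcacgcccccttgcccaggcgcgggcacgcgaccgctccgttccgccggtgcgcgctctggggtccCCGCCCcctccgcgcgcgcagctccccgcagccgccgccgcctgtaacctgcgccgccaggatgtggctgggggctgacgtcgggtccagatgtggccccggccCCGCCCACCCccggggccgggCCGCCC
KLF4: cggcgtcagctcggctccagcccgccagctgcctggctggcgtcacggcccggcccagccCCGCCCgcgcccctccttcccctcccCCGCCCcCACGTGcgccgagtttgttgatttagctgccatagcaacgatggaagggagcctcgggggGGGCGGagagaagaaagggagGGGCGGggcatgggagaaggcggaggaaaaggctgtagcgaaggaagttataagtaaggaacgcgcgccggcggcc
KLF9: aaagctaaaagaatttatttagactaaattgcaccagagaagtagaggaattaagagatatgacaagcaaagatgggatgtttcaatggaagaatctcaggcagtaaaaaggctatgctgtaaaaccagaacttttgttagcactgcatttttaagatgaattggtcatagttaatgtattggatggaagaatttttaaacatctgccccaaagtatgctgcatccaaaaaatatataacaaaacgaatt
The KLF6 window held 2 GC boxes and 1 E-box, and the KLF13 window 3 GC boxes and 1 CACCC core that overlaps one of them. The KLF4 window held 4 GC boxes and 1 E-box, and the KLF9 window none of these motifs. Over 35116 promoter windows of the same length, 42.6% held a GC box, 54.7% a CACCC core and 6.34% an E-box. The FOXO element GTAAACA (2.98% of windows) and the TATA box TATAAA (10.7%) were in none of these 4 windows. The G and C content was 72.4% for KLF6, 78.8% for KLF13, 69.2% for KLF4 and 32.4% for KLF9. GC boxes were thus in the windows of both genes that rose and in that of KLF4, and these letter matches are a description only.

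Of 47323 probes, 35.1% to 37.6% were detected per array (detection p below 0.05 against the array's negative controls). The epithelial markers EPCAM, KRT8, KRT18, KRT19, CDH1 and CDX2, 6 of 10 listed, were detected on all 6 arrays. The other listed epithelial markers, CDH17, LGALS4, CDX1 and VIL1, did not pass the detection filter. No listed fibroblast, leukocyte or endothelial marker was detected on all 6 arrays. The fibroblast marker COL1A1 was detected on 3 vehicle and 2 NU7441 arrays, near background. In a principal component analysis of the kept probes the groups lay apart on the first axis (68.3% of the variance). On the second axis (12.8%) NU7441 replicate 3 stood at 19.13 and NU7441 replicate 1 at -16.03, with the other arrays between -5.19 and 4.33. The tested KLF probes are therefore also given without NU7441 replicate 3.

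Of the 13 KLF probes, 8 to 10 were detected on each array. Testing required detection on all 3 arrays of either group, which 7 probes of 5 genes met, and 2 of the 7 were called, where 34.2% of all 14973 probes tested were. All 7 were detected on every array apart from the dimmer KLF4 probe, which was detected on 2 of 3 NU7441 arrays.

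**Figure D1:**
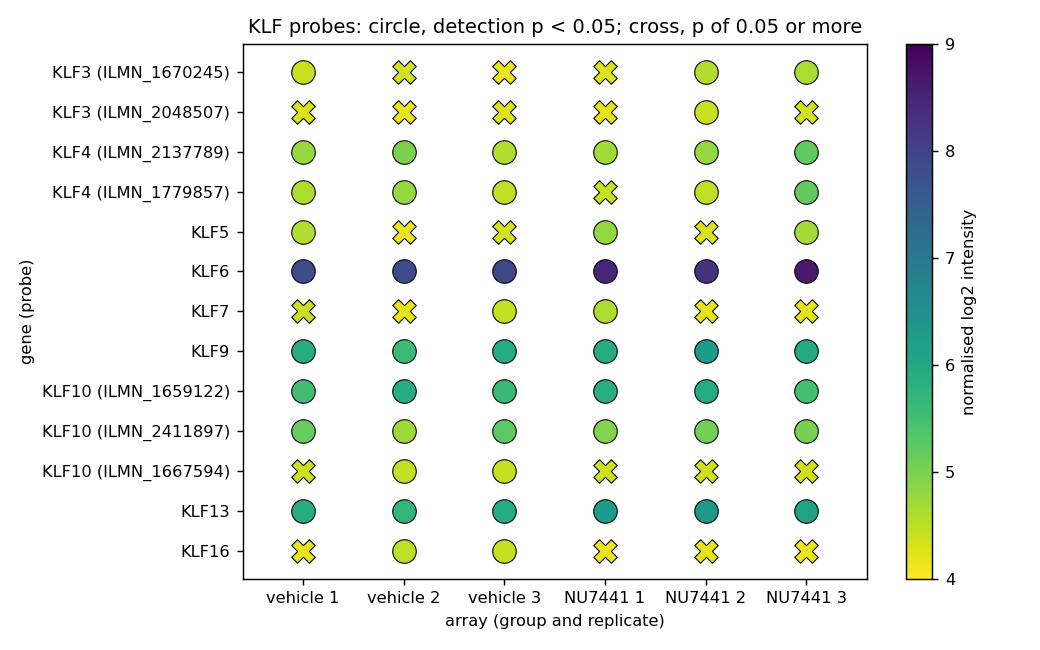
Each of the 13 KLF probes (rows) on each of the 6 arrays (columns), with colour giving the normalised log2 intensity and the symbol giving detection (circle, detection p below 0.05; cross, 0.05 or more). KLF6, KLF9, KLF13, 1 KLF4 probe and 2 KLF10 probes are circles on all arrays, and KLF3, KLF5, KLF7 and KLF16 show crosses in both groups.

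Among the activator group, KLF6 is a widely expressed early-response factor described as a tumour suppressor. Its single probe (ILMN_1735014) read 7.86, 7.87 and 7.90 in vehicle replicates 1 to 3 and 8.45, 8.30 and 8.66 in NU7441 replicates 1 to 3, as normalised log2 intensity. All 3 NU7441 arrays lay above all 3 vehicle arrays, and NU7441 replicate 3 was the highest. The deposited intensities, before any normalization, also did not overlap, with 316.7, 289 and 323.5 in vehicle and 345.9, 340.4 and 483.2 in NU7441. The mean went from 7.88 ± 0.02 to 8.47 ± 0.18 (SD, n = 3), a log2 fold change of 0.59 ± 0.12 (SE, 95% interval 0.34 to 0.85, limma adjusted p = 0.00176). The vehicle arrays lay closer together than the NU7441 arrays. By size of change the probe ranked 1756 of 14973. The change was 0.50 (adjusted p = 0.00467) without NU7441 replicate 3. These are bulk RNA levels, so a change in the share of cells that express a gene and a change in RNA per cell cannot be told apart.

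KLF4, which restrains growth in differentiated gut epithelium, had probes that both lay near background. The brighter (ILMN_2137789) read 4.79, 4.98 and 4.58 in vehicle and 4.69, 4.79 and 5.22 in NU7441. The dimmer (ILMN_1779857) read 4.61, 4.79 and 4.49 in vehicle and 4.41, 4.50 and 5.21 in NU7441. On both probes NU7441 replicate 3 was the highest of the 6 arrays and NU7441 replicates 1 and 2 lay within or below the vehicle range. The log2 fold changes were 0.12 ± 0.15 (SE, 95% interval -0.20 to 0.43, limma adjusted p = 0.560) and 0.08 ± 0.18 (95% interval -0.30 to 0.45, adjusted p = 0.760). Without NU7441 replicate 3 they were -0.04 (adjusted p = 0.845) and -0.17 (adjusted p = 0.301), so the sign of the KLF4 estimate rested on that array.

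KLF5, the crypt-associated factor, and KLF7, a close relative of KLF6, were each read by 1 probe that fell short of the filter. KLF5 (ILMN_1770293) was detected on 1 vehicle and 2 NU7441 arrays, at 4.59, 4.15 and 4.33 in vehicle and 4.81, 4.29 and 4.68 in NU7441. KLF7 (ILMN_1662023) was detected on 1 array of each group, at 4.42, 4.19 and 4.49 in vehicle and 4.62, 4.21 and 4.21 in NU7441. The groups overlapped for both genes. With no detection filter the estimates were 0.23 ± 0.16 (SE, adjusted p = 0.564) for KLF5 and -0.02 ± 0.13 (SE, adjusted p = 0.970) for KLF7. Neither estimate passed the threshold at this low signal, which does not show that the mRNAs are absent or unchanged.

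In the group that recruits SIN3A, KLF13, a factor known from lymphocytes and heart, was the member that rose. Its probe (ILMN_1679929) read 5.88, 5.73 and 5.89 in vehicle and 6.28, 6.36 and 6.11 in NU7441. The arrays of the groups did not overlap, and neither did the deposited intensities, at 119.2, 108.2 and 119.4 against 121.4, 132.4 and 132.2. Unlike KLF6 and KLF4, the lowest of the treated arrays here was NU7441 replicate 3. The log2 fold change was 0.42 ± 0.12 (SE, 95% interval 0.17 to 0.67, limma adjusted p = 0.0122), from 5.83 ± 0.09 to 6.25 ± 0.13 (SD, n = 3). The probe ranked 3728 of 14973 by size. It was 0.49 (adjusted p = 0.00586) without NU7441 replicate 3. The call was lost without vehicle replicate 2 (0.37, adjusted p = 0.0602) and without NU7441 replicate 2 (0.37, adjusted p = 0.0513). Without background correction the change was 0.23 and stayed past the threshold (adjusted p = 0.0134).

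KLF9, a factor induced by glucocorticoid and thyroid hormone, read 5.88, 5.62 and 5.88 in vehicle and 5.93, 6.25 and 5.98 in NU7441 (ILMN_1778523). The normalised NU7441 arrays all lay above the vehicle arrays, the closest pair being 5.93 against 5.88. The deposited intensities overlapped, with 119.3, 103.9 and 118.8 in vehicle and 107.8, 126.7 and 126 in NU7441. The log2 fold change was 0.26 ± 0.13 (SE, 95% interval -0.01 to 0.53), which did not pass the test (limma adjusted p = 0.117). It passed with arrays scaled to the 75th percentile of the probes detected on all arrays (0.36, adjusted p = 0.0394) and with array weights (0.32, adjusted p = 0.0450). It did not with the 75th percentile of all probes (0.21, adjusted p = 0.260). It was 0.30 without NU7441 replicate 3 (adjusted p = 0.0999) and 0.17 without NU7441 replicate 2 (adjusted p = 0.362). KLF6, KLF9 and KLF13 are the 3 of 5 tested members whose arrays did not overlap between groups, all with NU7441 above. Of all 9342 genes tested 49.9% did not overlap, 2261 genes with all NU7441 arrays above and 2396 with all below.

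KLF10, the factor induced by transforming growth factor beta, was read by 3 probes. The brightest (ILMN_1659122) read 5.53, 5.90 and 5.63 in vehicle and 5.87, 5.95 and 5.50 in NU7441. The next (ILMN_2411897) read 5.16, 4.72 and 5.26 in vehicle and 4.97, 5.06 and 5.05 in NU7441. The groups overlapped on both, and vehicle replicate 2 was the highest vehicle array on the first and the lowest on the second. The log2 fold changes were 0.08 ± 0.14 (SE, 95% interval -0.22 to 0.39, limma adjusted p = 0.668) and -0.02 ± 0.14 (95% interval -0.31 to 0.27, adjusted p = 0.923). Without NU7441 replicate 3 they were 0.22 (adjusted p = 0.202) and -0.03 (adjusted p = 0.893). The third probe (ILMN_1667594), assigned to another RefSeq transcript of the gene, was detected on 2 vehicle arrays and on no NU7441 array, with values of 4.36 to 4.49 over all arrays. The intervals of the tested probes reach from -0.31 to 0.39, so they do not show that KLF10 stayed constant.

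KLF16, a relative of KLF13, was detected on 2 vehicle arrays and on no NU7441 array (ILMN_1770451). It read 4.18, 4.50 and 4.46 in vehicle and 4.16, 4.21 and 4.13 in NU7441. The lowest vehicle array lay among the NU7441 arrays, and with no detection filter the estimate was -0.21 ± 0.09 (SE, adjusted p = 0.298). KLF3, the repressor that binds CtBP, had a probe (ILMN_1670245) detected on 1 vehicle and 2 NU7441 arrays, at 4.43, 4.34 and 4.16 in vehicle and 4.27, 4.57 and 4.63 in NU7441. Its second probe (ILMN_2048507) was detected on 1 array of the 6, NU7441 replicate 2. The groups overlapped on both KLF3 probes, with estimates of 0.18 ± 0.11 (SE, adjusted p = 0.519) and 0.08 ± 0.07 (SE, adjusted p = 0.697) with no detection filter.

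**Figure D2:**
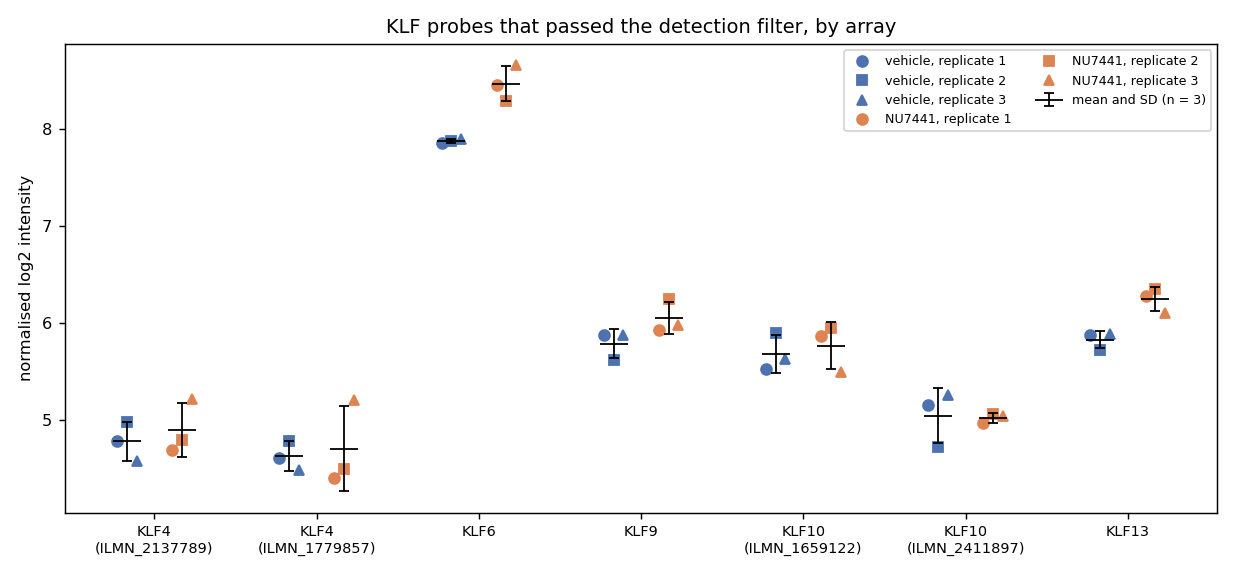
Normalised log2 intensity (y axis) of the 7 KLF probes that passed the detection filter, by probe (x axis); each marker is 1 array, the shape gives the replicate number, and the bars give the mean and SD of 3 arrays. The NU7441 arrays of KLF6 (8.30 to 8.66) and KLF13 (6.11 to 6.36) lie above all vehicle arrays, and on both KLF4 probes NU7441 replicate 3 lies apart at 5.22 and 5.21.

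The interval of KLF6 (0.34 to 0.85) overlaps those of KLF13 and KLF9 and, over a narrow range, those of both KLF4 probes and of the brightest KLF10 probe, and differences between the changes of these genes were not tested. Outside the 10 genes, 7 of 8 further KLF genes had a probe and 2 of these passed the filter. KLF2, a factor of quiescent endothelial and T cells, read 9.36, 9.19 and 9.14 in vehicle and 9.86, 10.03 and 10.18 in NU7441. The groups did not overlap, and KLF2 rose by 0.79 ± 0.12 (SE, limma adjusted p = 0.000222), 1.73-fold. KLF15, a factor of fasting metabolism, was at 0.09 ± 0.14 (SE, adjusted p = 0.622). Without NU7441 replicate 2 the count of higher genes in this list was 2. KLF15 was not the added gene, as it was at 0.02 in that fit and was called in 0 of the 18 alternatives. A KLF12 probe (ILMN_1714444) was detected on NU7441 replicates 1 and 3 but not on replicate 2. Leaving out NU7441 replicate 2 therefore let this KLF12 probe pass the filter, which no other unfiltered probe of this list did.

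The SP factors share the zinc finger type and the GC-box sites of the KLF proteins. Of 9 listed, 4 were measured and 0 were called by limma, against 36.6% of all genes, and by their brightest probes 0 also had an unadjusted p under 0.05. SP1, the ubiquitous activator of GC-box promoters, was at -0.03 ± 0.12 (SE). SP2, SP3 and SP4 were at 0.11, 0.11 and 0.10, with adjusted p-values of 0.538 to 0.638, and a dimmer SP3 probe was at 0.28 (unadjusted p = 0.0277, adjusted p = 0.0719). The signs of these 4 estimates were not stable: that of SP1 turned with the 75th percentile over detected probes and without NU7441 replicate 2, that of SP3 with the 75th percentile of all probes, and those of SP2 and SP4 without NU7441 replicate 3.

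**Figure D3:**
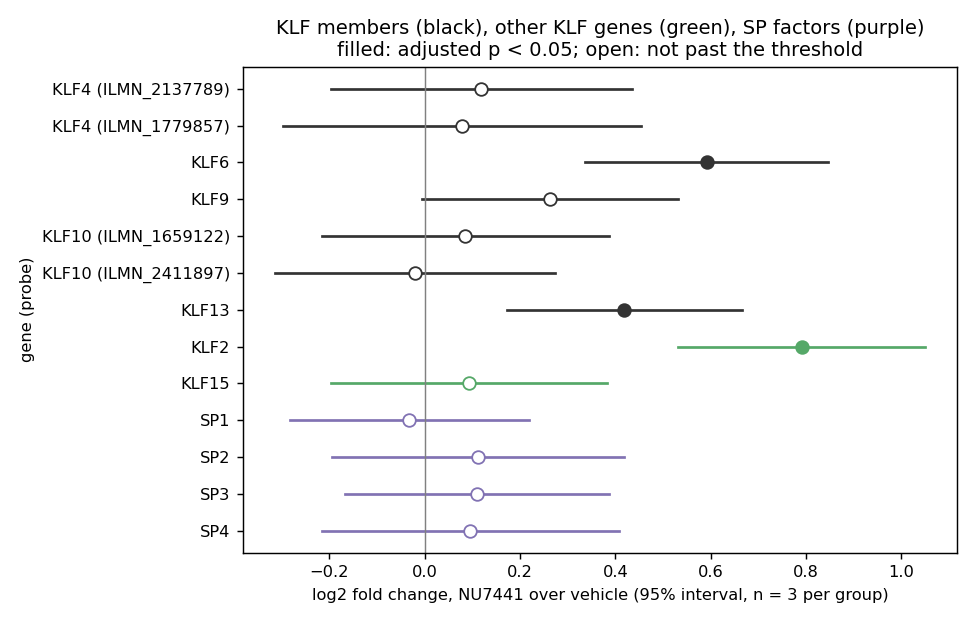
Log2 fold change of NU7441 over vehicle (x axis, with its 95% interval, n = 3 arrays per group) for each tested probe of the KLF genes (black), the other measured KLF genes (green) and the SP factors (purple). Filled points, KLF6 at 0.59, KLF13 at 0.42 and KLF2 at 0.79, are past an adjusted p of 0.05, and the open points are not.

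Proteins that bind or modify KLF factors were counted in the same way. Of 11 corepressors and coactivators 10 were measured, with a median of 0.10 against 0.00 over all genes. At an unadjusted p under 0.05 by limma, 2 were higher and 0 were lower. After adjustment 1 was higher and 0 were lower. That is 10% called, against 36.6% of all genes. CTBP2, a corepressor bound by KLF3, was the one called, at 0.68 ± 0.16 (SE, limma adjusted p = 0.00411), with 5.18, 4.89 and 5.31 in vehicle and 5.44, 5.93 and 6.05 in NU7441. Its second tested probe went the other way, at -0.33 ± 0.13 (SE, adjusted p = 0.0635), and the mean of its probes was 0.18 (adjusted p = 0.259). The call was also lost with no detection filter (adjusted p = 0.0541), and without background correction the value was 0.31. Without NU7441 replicate 2 the list had 2 higher, without NU7441 replicate 3 or with array weights it had 1 lower, and with no detection filter or the mean of a gene's probes it had 0 higher. Of 10 ubiquitin ligases and deubiquitinases of KLF proteins 8 were measured, with 1 higher, 0 lower and a median of -0.06. At an unadjusted p under 0.05 by limma, 2 were higher and 1, USP3, was lower. The share called was 12.5%, against 36.6% of all genes. Over the alternatives the list had 1 or 2 higher and 0 to 2 lower. FBXO32, a ligase subunit induced in muscle wasting, rose by 0.46 ± 0.12 (SE, adjusted p = 0.00813). That value was 0.17 without background correction (adjusted p = 0.0389) and 0.16 in the authors' deposited log2 values (adjusted p = 0.0403). Its second tested probe was not above background on any vehicle array and passed the filter only through the NU7441 arrays. In background-corrected, normalised signal it was at least 1.18-fold brighter in NU7441. That bound was set by the lowest detected signal of each vehicle array. The deposited intensities of this probe were 70.9, 75.6 and 73.7 in vehicle and 80.1, 79 and 83.5 in NU7441.

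Of 17 upstream regulators of KLF genes 13 were measured, with 4 higher, 0 lower and a median of 0.25. At an unadjusted p under 0.05 by limma, 7 were higher and 1, EGR1, was lower. The share called was 30.8%, against 36.6% of all genes, 17.8% higher and 18.9% lower. SMAD3, a signal carrier of transforming growth factor beta, rose by 0.69 ± 0.13 (SE, limma adjusted p = 0.000836). STAT3, a cytokine-activated factor, rose by 0.65 ± 0.13 (SE, adjusted p = 0.00170) and its other tested probes by 0.71 and 0.60. FOXO1 and FOXO4, factors restrained by AKT, rose by 0.49 (adjusted p = 0.0138) and 0.40 (adjusted p = 0.0209). FOXO1 lost its call without vehicle replicate 2 (adjusted p = 0.0763) and without NU7441 replicate 2 (adjusted p = 0.0659), in the authors' deposited log2 values (0.18, adjusted p = 0.0545) and with no detection filter (adjusted p = 0.0776). FOXO4 lost it without vehicle replicate 2 or 3 and without NU7441 replicate 2 or 3, at adjusted p-values of 0.0504 to 0.0899, with the 75th percentile of all probes (0.34, adjusted p = 0.0712) and with no detection filter (adjusted p = 0.0567). Without background correction SMAD3 was at 0.42, STAT3 at 0.40, FOXO1 at 0.19 and FOXO4 at 0.20, all past the threshold. The count of higher genes was 2 with no detection filter, and 2 when either vehicle replicate 2 or NU7441 replicate 2 was left out. It was 6 without background correction and with an offset of 50, and 1 gene was lower in 5 of the 18 alternatives, the authors' deposited log2 values among them.

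Of 21 genes reported as epithelial targets of KLF factors 14 were measured, with 3 higher, 6 lower and a median of -0.23, while 64.3% of the 14 were called against 36.6% of all genes. The list was chosen with earlier results of these data known, so these shares are not an independent comparison. With the 75th percentile of the probes detected on all arrays 5 were higher and 5 lower. Over all 18 alternatives 2 to 5 were higher and 5 to 7 lower. The list mixes genes that KLF factors raise with genes that they repress. MYC fell by 0.92 (SE 0.12, limma adjusted p = 5.08e-05), BIRC5 (survivin) by 0.87, CDK1 by 0.76 and CCNE1 (cyclin E1) by 0.64. The dimmer tested probes were at -0.60 for MYC, -0.60 for BIRC5 and -0.94 for CDK1. That of BIRC5 was detected on 2 of 3 NU7441 arrays. The remaining falls were CCNB1 at -0.59 and CCND1 at -0.38, named after their values were seen. CCND1 lost its call without vehicle replicate 1 (adjusted p = 0.0503) and with the 75th percentile over detected probes (adjusted p = 0.0788). The 3 that rose, also named after their values were seen, were ATF3, a stress-induced factor, at 0.58 (adjusted p = 0.00103), CDH1 (E-cadherin) at 0.52 (adjusted p = 0.00563) and CDKN1A (p21) at 0.45 (adjusted p = 0.0422). The CDKN1A arrays overlapped, and its call was lost on leaving out any 1 array but NU7441 replicate 3, at adjusted p-values of 0.0544 to 0.164, with no detection filter (0.229) and in the authors' deposited log2 values (0.0511). Without background correction ATF3 was at 0.30, CDH1 at 0.34 and CCNE1 at -0.40, past the threshold.

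**Figure D4:**
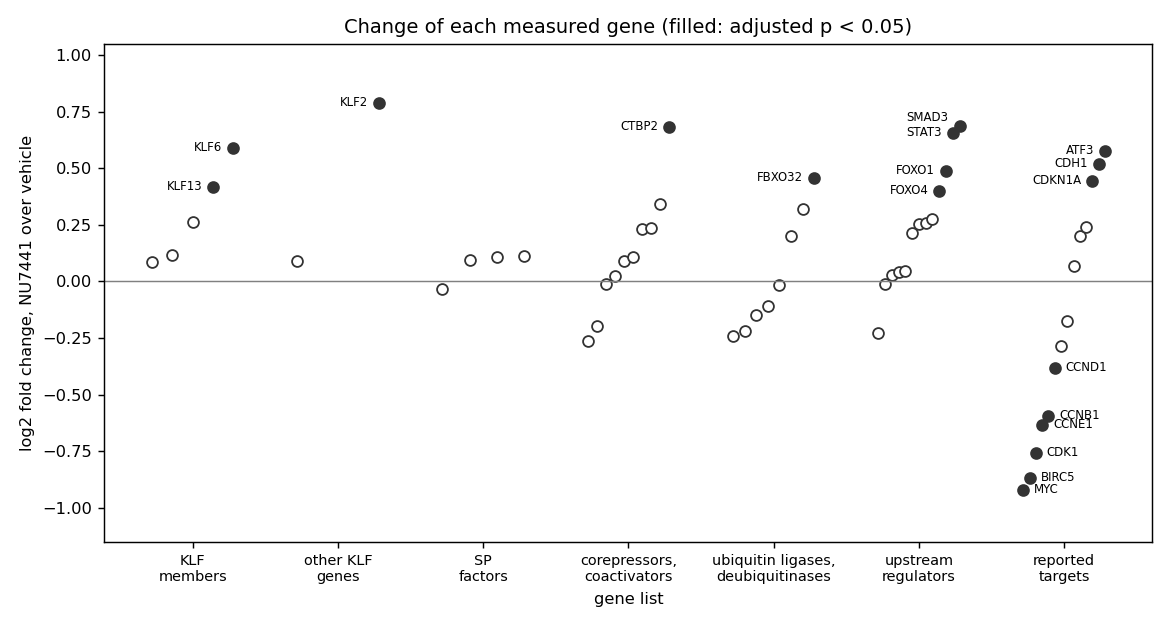
Log2 fold change of NU7441 over vehicle (y axis) of each measured gene by its brightest tested probe, in the KLF genes and 6 related gene lists (x axis); filled points are past an adjusted p of 0.05. KLF6 and KLF13 are the filled KLF points, no SP factor is filled, and 6 of the reported targets are filled below 0.

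**Figure D5:**
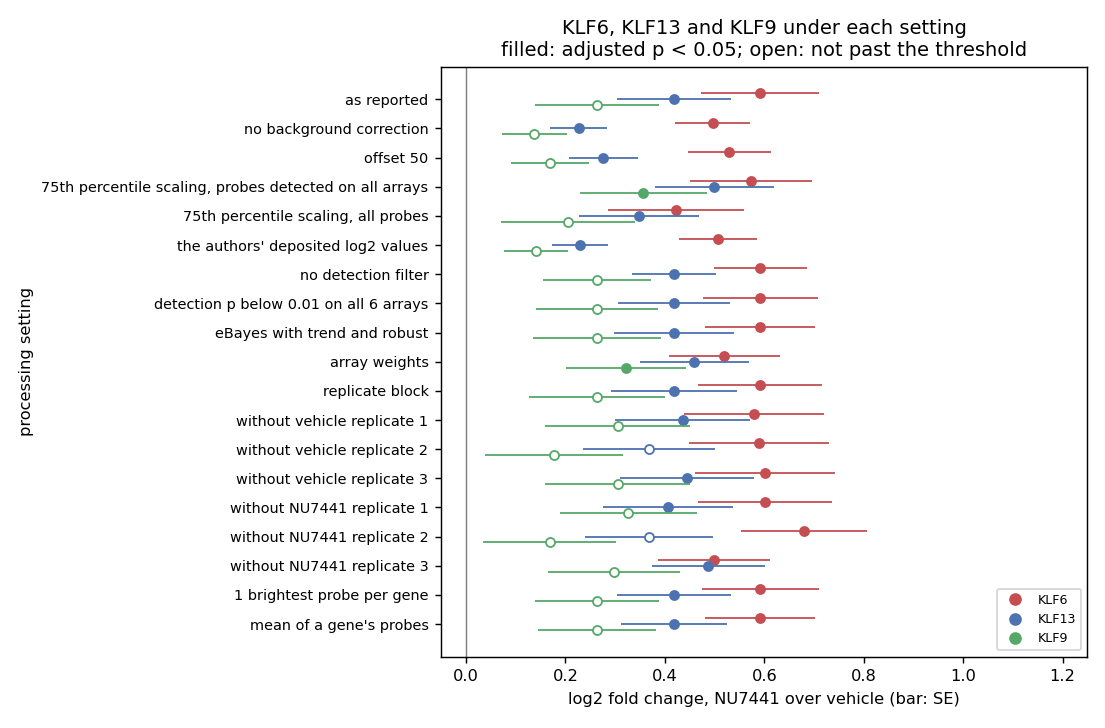
Log2 fold change (x axis, bar: SE) of KLF6, KLF13 and KLF9 under each processing setting (y axis); filled points are past an adjusted p of 0.05. KLF6 is filled throughout, between 0.42 and 0.68, KLF13 is open without vehicle replicate 2 and without NU7441 replicate 2, and KLF9 is filled with 75th percentile scaling over detected probes and with array weights.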

How the data were processed

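Per the file headers, the authors deposited non-normalized intensity values on a linear scale, each with its detection p-value. They also deposited log2 values of the same arrays. Each log2 column had a median of 6.22 and differed from the quantile-normalized log2 intensity by at most 0.068, so the scale is log2, not centred. That table holds no value for 1 probe. The submitters' processing notes name GenomeStudio, lumi and R 3.0.2, with no settings.

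Intensities were background corrected by normexp (limma 3.58.1, R 4.3.3, offset 16, negative controls inferred from detection p), quantile normalized and log2 transformed. Probes with detection p below 0.05 on all 3 arrays of a group were kept (14973). GEO's platform annotation gave 30112 probes 1 symbol, 8 several and 17203 none, and a probe with no symbol may still read a gene. All kept probes were fitted with limma (lmFit, eBayes) on group alone, with Benjamini-Hochberg adjustment over all of them and a threshold of 0.05. A gene was counted by its brightest kept probe (9342 genes). The procedure was also run on simulated data with independent noise and far fewer changed probes than were called here. That run does not show that the calls made here are right. The KLF genes and all lists were chosen with earlier results of these data known. The rule for naming took every KLF gene, every measured gene of the other KLF and SP lists and up to 4 called genes of each other list with the largest change. Samples of the same number did not deviate together, with correlations of -0.11, 0.05 and -0.07. Alternatives were other background corrections, scalings, filters and variance models, the authors' log2 values, array weights, the replicate block, other treatments of a gene's probes and leaving out each array. Promoter windows and their coordinates are RefSeq's. Promoter windows of KLF3 and KLF10 were not used here, and protein sequences were not analysed here. Plots used matplotlib 3.10.9 in Python 3.11.15.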

Additional observations from a re-analysis of the deposited data

How the results depend on the processing

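The direction of KLF6, KLF13 and KLF9 was the same under all 18 alternatives. KLF6 stayed past the threshold in all 18, KLF13 in 16, and KLF9 passed in 2. The count of higher KLF genes, 2 as reported, ranged from 1 to 2 on leaving out 1 array, being 1 without vehicle replicate 2 and without NU7441 replicate 2. Signs turned for estimates that did not pass the test. On leaving out 1 array, KLF10's first probe ranged from -0.0035 to 0.22, its second from -0.18 to 0.085, KLF4's dimmer probe from -0.17 to 0.23, its brighter from -0.038 to 0.23, SP1 from -0.081 to 0.061, SP2 from -0.034 to 0.22 and SP4 from -0.052 to 0.21. With the 75th percentile over detected probes KLF10's second probe was at 0.11 and SP1 at 0.032. SP3 was at -0.0057 with that over all probes, and KLF4's dimmer probe at -0.021 with array weights. The cause was not tested. Over the related lists 10 genes were higher and 6 lower as reported; 6 were higher with no detection filter, where 47323 probes were tested, and 10 were lower with the 75th percentile over all probes, an alternative chosen after seeing the data. Of all called probes 48.9% were higher as reported, 65.9% with the 75th percentile over detected probes and 36.5% with that over all probes. With the replicate block, 2393 probes were higher and 2473 lower, against 2507 and 2619, and the counts of KLF genes stayed at 2 and 0. A fit with the slide as a block was left out, since no slide is recorded in the files. Dim probes limit KLF3, KLF4, KLF5, KLF7 and KLF16, whose signals lay near the array medians of 72.8 to 75.3.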
